A study of Mus musculus with 12 samples.

Results

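Smooth muscle and contractile genes were examined in PT-22, a mouse proximal tubule epithelial cell line. The 10 genes, taken by their symbols from the 55491 genes of the count and TPM tables, were Acta2, Actg2, Tagln, Tagln2, Myl9, Mylk, Cnn1, Cnn2, Tpm1 and Tpm2. All 12 libraries carried the genotype Pax2-/-,Pax8fl/fl,Rosa-CreERT2, that is, no Pax2, a floxed Pax8 and a tamoxifen-activated Cre recombinase expressed from the Rosa locus. The control group was untreated, and the other 3 groups received 1 µM 4-hydroxytamoxifen for 2 days at confluence to deplete PAX8, a transcription factor of kidney epithelium, with polyA RNA taken 2, 6 and 12 days after treatment. Each group had 3 libraries, lettered A, B and C, and the labels do not say whether these were separate cultures or whether days count from the start or the end of treatment, and p-values measure only the spread between libraries, which may be technical. PT-22 is 1 line, and neither a vehicle-treated library nor an untreated library of a later day is among the groups, so PAX8 depletion, drug, Cre activity and time in culture cannot be told apart.

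Contraction in smooth muscle, and tension in the stress fibres of other cells, comes from myosin II pulling on actin filaments. Myosin light chain kinase, the product of Mylk, phosphorylates regulatory light chains such as Myl9 and so switches the motor on. Tropomyosins, calponins and transgelins line or bundle the actin filament and tune its access to myosin. Acta2 and Actg2 encode the alpha and gamma smooth muscle actins, and Acta2 is the usual mark of activated myofibroblasts in the injured kidney. Many of these genes are textbook targets of serum response factor (SRF), which binds a short element named the CArG box and works with the cofactors MRTF-A, MRTF-B and myocardin.

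Read sharing between the actin genes bears on how their counts can be read, so their coding sequences are shown where they are most alike. The coding sequences of Acta2 (1131 bases) and Actg2 (1128 bases) in GENCODE M21 (GRCm38) were identical at 84.4% of the 1128 aligned bases, and the longest identical run was 29 bases. The 60 coding bases around that run are printed below, with the 9 bases that differ in capitals, for Acta2 from chr19:34245040-34245099 and for Actg2 from chr6:83519896-83519955, both on the minus strand and each within 1 coding exon.
Acta2: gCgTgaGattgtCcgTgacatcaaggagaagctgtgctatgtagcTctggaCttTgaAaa
Actg2: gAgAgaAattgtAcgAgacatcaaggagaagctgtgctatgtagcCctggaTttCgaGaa
No stretch of 50 transcript bases of Actg2 was found in the transcripts of another gene. For Acta2, 7 of 2146 such stretches (0.326%) were shared, with the cytoplasmic actin Actg1 and actin pseudogenes among the 6 other genes, and no stretch of 100 bases was shared. The sources used here do not give the read length.

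The promoters of 8 of the 10 genes were in the RefSeq table (GRCm38.p6). Tagln and Actg2, which were also higher than control on days 6 and 12, had no entry there and were not searched. In the 250 bases before the start of each gene, an exact CArG box was present at Myl9 (bases -161 to -152 from the start) and Cnn2 (-56 to -47). A near match, with 1 C or G among the 6 inner bases, was present at Acta2 (-84 to -75 and -34 to -25) and Myl9 (-99 to -90). Exact boxes were found in 1.47% of 32851 promoters and near matches in 7.24%. The boxes of these 3 genes are printed with 10 bases on either side on the strand of the gene, and the box is in capitals.
Acta2 at chr19:34255438-34255467: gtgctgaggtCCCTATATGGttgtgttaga
Acta2 at chr19:34255388-34255417: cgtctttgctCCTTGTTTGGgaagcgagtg
Myl9 at chr2:156775293-156775322: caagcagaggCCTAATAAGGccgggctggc
Myl9 at chr2:156775355-156775384: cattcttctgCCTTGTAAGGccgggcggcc
Cnn2 at chr10:79988534-79988563: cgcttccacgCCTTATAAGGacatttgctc
GENCODE starts Acta2 217 bases further upstream than RefSeq, so both Acta2 boxes lie within its first GENCODE exon. The stretches before the first GENCODE exon are shown whole for Myl9 (206 bases, chr2:156775214-156775419) and Cnn2 (234 bases, chr10:79988350-79988583), the genes with an exact box, with boxes and near matches in capitals.
Myl9: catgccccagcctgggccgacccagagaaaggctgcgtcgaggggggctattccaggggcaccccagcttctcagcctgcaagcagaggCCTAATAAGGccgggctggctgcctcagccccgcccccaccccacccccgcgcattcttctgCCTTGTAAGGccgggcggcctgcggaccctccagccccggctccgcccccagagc
Cnn2: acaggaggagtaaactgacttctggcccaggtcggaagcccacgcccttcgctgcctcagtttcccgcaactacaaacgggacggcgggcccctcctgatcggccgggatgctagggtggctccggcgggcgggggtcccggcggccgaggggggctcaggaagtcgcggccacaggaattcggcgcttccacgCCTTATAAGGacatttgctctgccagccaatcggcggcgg
In the other 5 windows, those of Tagln2, Cnn1, Tpm1, Tpm2 and Mylk, neither form was found. As GENCODE draws the genes, however, 199 of the 250 bases lie inside Tagln2, 193 inside Tpm1, 211 inside Tpm2, 37 inside Cnn1 and all 250 inside Mylk, so for 4 of these genes few or no bases upstream of the GENCODE start were searched. CATTCC, the core bound by TEAD factors, searched on both strands, was present at Acta2, Tagln2, Tpm1 and Mylk and in 12.6% of all promoters. TATAAA, also searched on both strands, was present at none of the 8 and in 12.4% of all. These matches describe letters in a window and not binding.

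Library totals ran from 4326667 to 11654959 counts, and 13513 genes passed a filter on low counts. All 10 genes passed, Actg2 through its day 6 and day 12 libraries. Pax8 itself was measured at 225 ± 3.46 CPM (counts scaled to library totals) in control, 402 ± 51.0 CPM on day 2, 256 ± 10.9 CPM on day 6 and 242 ± 10.5 CPM on day 12 (SD, n = 3), a gene-level value that also takes in reads outside the deleted part and so checks neither the deletion nor the labels. Of 17 proximal tubule markers, 8 passed the filter, among them Cdh16, Aqp1, Cdh6, Anpep and Lrp2, whereas the transporter genes Slc34a1, Slc5a2 and Slc5a12 had no count in any library. The summed level of the 17 fell from 993 to 1122 TPM (a scale of transcript level per length) in control libraries to 424 to 547 TPM on day 12. Of the 8, 6 were lower and 1 higher on day 12 by edgeR, beside 26.6% and 26.1% of all genes tested.

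Of the 10 genes, 7 were higher on day 12 than in control and 1 lower, beside 26.1% and 26.6% of all genes tested. The 7 include Actg2, which entered the test through its day 6 and day 12 libraries and held 1 count in control. Apart from Actg2, Acta2 and Tagln moved furthest. Acta2 rose at every step, 93.0-fold in all, Tagln 31.9-fold and Myl9 11.7-fold. Cnn2, Tpm2 and Tagln2 rose less, by 3.80-fold, 1.99-fold and 1.43-fold. Mylk, which encodes the kinase of the myosin light chain, fell 1.61-fold, and Cnn1 and Tpm1 were highest on day 2 and did not pass the test on day 12. Levels are CPM scaled by the trimmed mean of M values (TMM), and differences were tested with the quasi-likelihood test of edgeR, with Benjamini-Hochberg adjustment over all genes tested and 0.05 as the threshold.

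**Figure D1:**
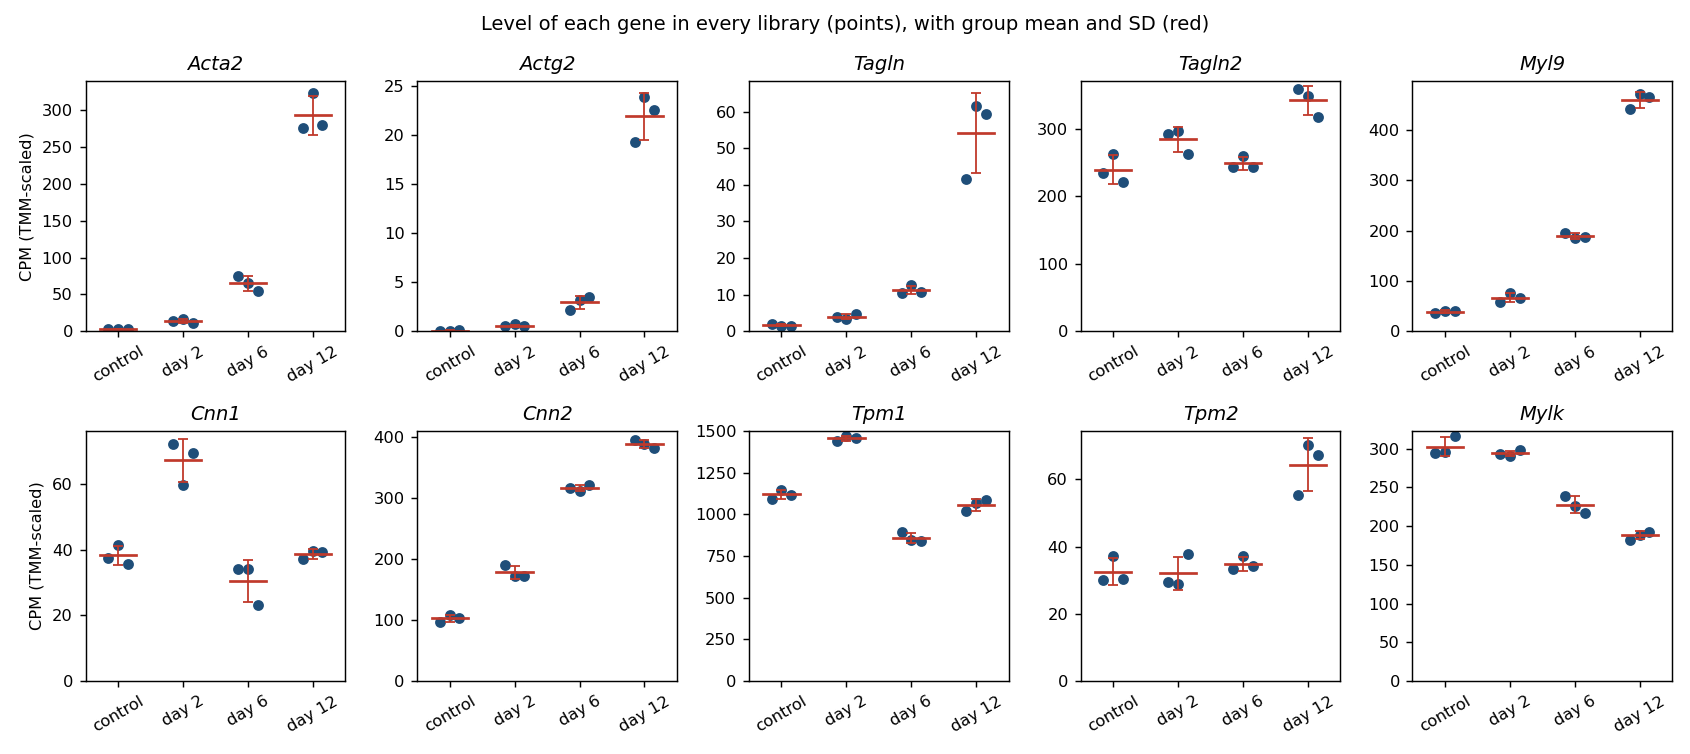
Level of each gene (TMM-scaled CPM, axis from 0) in the 12 libraries by group, with points for libraries, red lines for group means and red bars for the SD (n = 3). Acta2, Actg2, Tagln, Myl9 and Cnn2 climbed from group to group without overlap, Cnn1 and Tpm1 were highest on day 2, and Mylk was lowest on day 12.

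Among the actins, Acta2 (ENSMUSG00000035783, GRCm38 chr19:34241090-34255590, minus strand) stood at 3.46, 2.63 and 3.24 CPM in control libraries A, B and C, on 30, 19 and 31 counts. It reached 14.2, 16.1 and 10.8 CPM on day 2, 75.5, 65.6 and 54.9 CPM on day 6, and 276, 324 and 280 CPM on day 12. Every library of a group lay above every library of the group before it. The log2 differences from control were 2.05 ± 0.24 (SE) on day 2, 4.38 ± 0.18 on day 6 and 6.54 ± 0.15 on day 12, with edgeR adjusted p = 3.67e-06, 2.74e-13 and 6.35e-17. The steps between treated days were of like size, 2.34 ± 0.14 from day 2 to day 6 and 2.16 ± 0.10 from day 6 to day 12 (edgeR adjusted p = 1.96e-10 and 2.71e-11).

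Actg2 (ENSMUSG00000059430, chr6:83512905-83536265, minus strand), the gamma smooth muscle actin of visceral muscle, was next to absent in control, with 0, 0 and 1 count. The treated libraries held 4, 3 and 6 counts on day 2, 22, 29 and 26 on day 6, and 165, 213 and 219 on day 12. No group overlapped the one before it. Scaled to library totals adjusted by TMM, the ratio of counts to control was 14.2 (95% counting interval 2.13 to 603) on day 2, 73.7 (12.8 to 2949) on day 6 and 559 (99.9 to 22110) on day 12. These wide intervals rest on the single control count. The edgeR adjusted p was 1.79e-10 on day 6 and 3.27e-20 on day 12. Actg2 entered the test through its day 6 and day 12 libraries, so its calls on those days are not independent of the filter on low counts. With day 2 and control fitted alone it had too few counts to be tested. Nothing is therefore read from its call on day 2 (edgeR adjusted p = 0.00366 in the fit of all 4 groups). Between days with counts to compare, Actg2 rose 7.50-fold from day 6 to day 12 (edgeR adjusted p = 5.14e-14). Actg2 made up 1.04% ± 1.80 of the summed Acta2 and Actg2 counts in control, 4.13% ± 0.405 on day 2, 4.47% ± 1.57 on day 6 and 6.95% ± 0.462 on day 12 (SD, n = 3), and the day 12 libraries (6.52% to 7.44%) lay above those of day 6 (2.82% to 5.94%).

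The cytoplasmic actins Actb and Actg1 stayed the bulk of actin transcripts. Actb rose by 0.27, 0.23 and 0.22 on the log2 scale on days 2, 6 and 12 (edgeR adjusted p = 3.14e-04, 7.80e-04 and 9.26e-04), and Actg1 gave 0.05, -0.06 and 0.11, none of which passed. Skeletal muscle actin, Acta1, rose from 1.40 ± 0.137 to 7.17 ± 0.887 CPM on day 12 (log2 difference 2.34 ± 0.25, edgeR adjusted p = 6.25e-10). Cardiac actin, Actc1, had no count before day 12 and at most 2 counts in a library there. Of the summed TPM of the 6 actins, Acta2 took 0.0911% ± 0.0230 in control, 0.341% ± 0.0527 on day 2, 1.89% ± 0.239 on day 6 and 7.22% ± 0.506 on day 12. Actb took 46.5% ± 0.228 in control and 44.4% ± 0.992 on day 12, and Actg1 53.3% ± 0.179 and 47.3% ± 0.503. The smooth muscle actin thus remained a minor share at its highest.

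Transgelin, Tagln (ENSMUSG00000032085, chr9:45929619-45936058, minus strand), also called SM22-alpha, is an actin-bundling protein of smooth muscle. It gave 2.07, 1.38 and 1.57 CPM in control libraries A, B and C, 3.94, 3.27 and 4.78 CPM on day 2, 10.5, 12.6 and 10.7 CPM on day 6, and 41.5, 61.6 and 59.4 CPM on day 12. No group overlapped the one before it, and day 12 A lay below the other day 12 libraries. Against control, the log2 differences were 1.31 ± 0.28, 2.73 ± 0.23 and 4.99 ± 0.19 (edgeR adjusted p = 7.04e-04, 1.03e-11 and 1.53e-20). The day 2 rise was not seen in the TPM values, at 3.90 ± 1.88 TPM in control and 4.73 ± 1.03 TPM on day 2 (limma on log2(TPM + 1): 0.30, adjusted p = 0.567). Its exons are overlapped by genes on the opposite strand, the antisense gene Gm48529 by 1241 bases and Pcsk7 by 108 bases, and 58.3% of the 50-base stretches of Tagln transcripts occur in them. Gm48529 held 34 counts over the control libraries and 34 over those of day 12, against 43 and 1483 for Tagln. Since the use of strand in counting is not given, reads of Tagln and Gm48529 cannot be told apart in control, where their counts were alike.

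Tagln2 (ENSMUSG00000026547, chr1:172500047-172507380, plus strand), a transgelin found in many non-muscle cells, was already abundant in control. Its level ran from 220 to 262 CPM in control libraries, 262 to 297 on day 2, 243 to 260 on day 6 and 318 to 359 on day 12. Only the day 12 libraries stood clear of all others. On the log2 scale, the differences from control were 0.25 ± 0.06 on day 2, 0.06 ± 0.06 on day 6 and 0.52 ± 0.06 on day 12 (edgeR adjusted p = 0.00448, 0.444 and 1.74e-08). Without control C the day 2 difference did not pass (0.19, edgeR adjusted p = 0.0644). Tagln took 1.31% ± 0.633 of the summed TPM of the 3 transgelins in control and 12.6% ± 2.65 on day 12, and Tagln2 fell in share from 98.6% ± 0.666 to 87.4% ± 2.60.

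Myl9 (ENSMUSG00000067818, chr2:156775420-156781658, plus strand) encodes a regulatory light chain of myosin II found in smooth muscle and in stress fibres. It stood at 36.6, 40.3 and 40.8 CPM in control, 57.8, 76.0 and 66.8 CPM on day 2, 196, 186 and 187 CPM on day 6, and 440, 471 and 464 CPM on day 12. Each group cleared the one before it. In log2, it differed from control by 0.75 ± 0.08, 2.27 ± 0.07 and 3.55 ± 0.07 (edgeR adjusted p = 2.61e-09, 8.23e-24 and 1.98e-29). Within the 3 regulatory light chains, the share of Myl9 by TPM went from 5.23% ± 0.0198 in control to 7.21% ± 1.04, 20.1% ± 0.690 and 34.0% ± 2.28. The share of Myl12b, a non-muscle regulatory light chain, went from 54.7% ± 3.20 to 27.8% ± 0.991 on day 12, and that of Myl12a stayed between 38.2% and 40.3% on average. By CPM, Myl12b fell by 0.34 and 0.24 on the log2 scale on days 6 and 12 (edgeR adjusted p = 1.37e-04 and 0.00442) and Myl12a rose by 0.72 on day 12 (edgeR adjusted p = 4.85e-13). At day 12 Myl9 was thus at a level per length (880 ± 61.8 TPM) between those of Myl12b (720 ± 34.8 TPM) and Myl12a (990 ± 38.4 TPM).

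Mylk (ENSMUSG00000022836, chr16:34745210-35002420, plus strand), the kinase that phosphorylates those light chains, moved the other way. Its level was 295, 296 and 316 CPM in control libraries A, B and C, 293, 291 and 298 CPM on day 2, 239, 227 and 217 CPM on day 6, and 182, 189 and 193 CPM on day 12. Control and day 2 overlapped, day 6 lay below both, and day 12 lay below day 6. The log2 differences from control were -0.04 ± 0.05 on day 2, -0.41 ± 0.05 on day 6 and -0.69 ± 0.05 on day 12 (edgeR adjusted p = 0.674, 6.98e-08 and 5.82e-13). Antisense genes overlap its exons but held few reads, 17 counts for E130310I04Rik and 27 for Gm21691 over all libraries. The fall was smaller in TPM, from 65.5 ± 4.57 to 49.1 ± 2.36 TPM (limma on log2(TPM + 1) on day 12: -0.41, adjusted p = 6.54e-04). In that limma fit the separate steps from day 2 to day 6 (-0.19, adjusted p = 0.0629) and from day 6 to day 12 (-0.17, adjusted p = 0.165) did not pass. Gene totals do not separate the transcripts of Mylk, and its ratio of count to TPM was lowest in the 3 day 12 libraries.

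The calponins bind actin and slow the myosin motor. Cnn2 (ENSMUSG00000004665, chr10:79988584-79996062, plus strand), which is found in many cell types, ran from 96.0 to 108 CPM in control, 172 to 190 on day 2, 311 to 321 on day 6 and 383 to 395 on day 12. It rose at each step without overlap, and its smallest step came last. Against control, the log2 differences were 0.80 ± 0.06, 1.63 ± 0.06 and 1.93 ± 0.06 (edgeR adjusted p = 6.19e-13, 1.82e-22 and 1.22e-24), while the step from day 6 to day 12 was 0.30 ± 0.05 (edgeR adjusted p = 9.43e-05). Cnn1 (ENSMUSG00000001349, chr9:22099216-22109630, plus strand), the calponin of differentiated smooth muscle, did not follow Acta2. It gave 37.5, 41.5 and 35.7 CPM in control, 72.4, 59.9 and 69.4 CPM on day 2, 34.0, 34.1 and 23.2 CPM on day 6, and 37.1, 39.7 and 39.4 CPM on day 12. Day 2 stood clear of all other groups, and day 12 overlapped control. On the log2 scale, the differences from control were 0.83 ± 0.10, -0.31 ± 0.11 and 0.02 ± 0.11 (edgeR adjusted p = 2.41e-07, 0.0176 and 0.865). The day 6 fall was lost without day 6 C (-0.16, edgeR adjusted p = 0.173) and without control B (-0.25, edgeR adjusted p = 0.0872). On the TPM scale it missed the threshold (limma on log2(TPM + 1): -0.345, adjusted p = 0.306). From day 2 to day 6 Cnn1 fell by 1.14 ± 0.10 (edgeR adjusted p = 4.70e-10). Its TPM spread more than its CPM on day 2, with 85.8, 47.7 and 94.4 TPM, and the rise over control did not pass there (limma on log2(TPM + 1): 0.53, adjusted p = 0.218). Cnn3, the third calponin, remained the most abundant by TPM, with 79.6% ± 1.33 of the family in control and 65.9% ± 0.937 on day 12, while Cnn2 went from 11.9% ± 0.920 to 29.0% ± 0.325.

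Tropomyosins form the cable along the actin filament. Tpm1 (ENSMUSG00000032366, chr9:67022590-67049406, minus strand) had the highest level of the 10 genes, with 1093 to 1146 CPM in control, 1442 to 1469 on day 2, 838 to 894 on day 6 and 1018 to 1087 on day 12. The 4 groups did not overlap, although control and day 12 lay near each other. In log2, it differed from control by 0.38 ± 0.05, -0.38 ± 0.05 and -0.08 ± 0.05 (edgeR adjusted p = 2.75e-07, 7.43e-08 and 0.183), so the day 2 rise and day 6 fall passed and day 12 did not. Tpm2 (ENSMUSG00000028464, chr4:43514711-43523765, minus strand), the beta tropomyosin, ran from 30.1 to 37.2 CPM in control, 29.0 to 37.7 on day 2, 33.4 to 37.2 on day 6 and 55.4 to 70.4 on day 12. Only day 12 left the range of the other groups. The log2 difference on day 12 was 0.99 ± 0.10 (edgeR adjusted p = 2.79e-09), and those on days 2 and 6 were 0.02 ± 0.11 and 0.11 ± 0.11 (edgeR adjusted p = 0.920 and 0.420). By TPM, Tpm1 took 52.2% ± 0.271 of the 4 tropomyosins in control, 56.3% ± 1.17 on day 2, 43.0% ± 1.28 on day 6 and 44.1% ± 0.725 on day 12. Tpm4, a non-muscle tropomyosin, went from 24.9% ± 0.668 to 34.1% ± 1.01 and Tpm2 from 2.17% ± 0.221 to 3.52% ± 0.555. Gene totals do not separate the muscle and non-muscle isoforms that Tpm1 and Tpm2 give by alternative splicing.

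**Figure D2:**
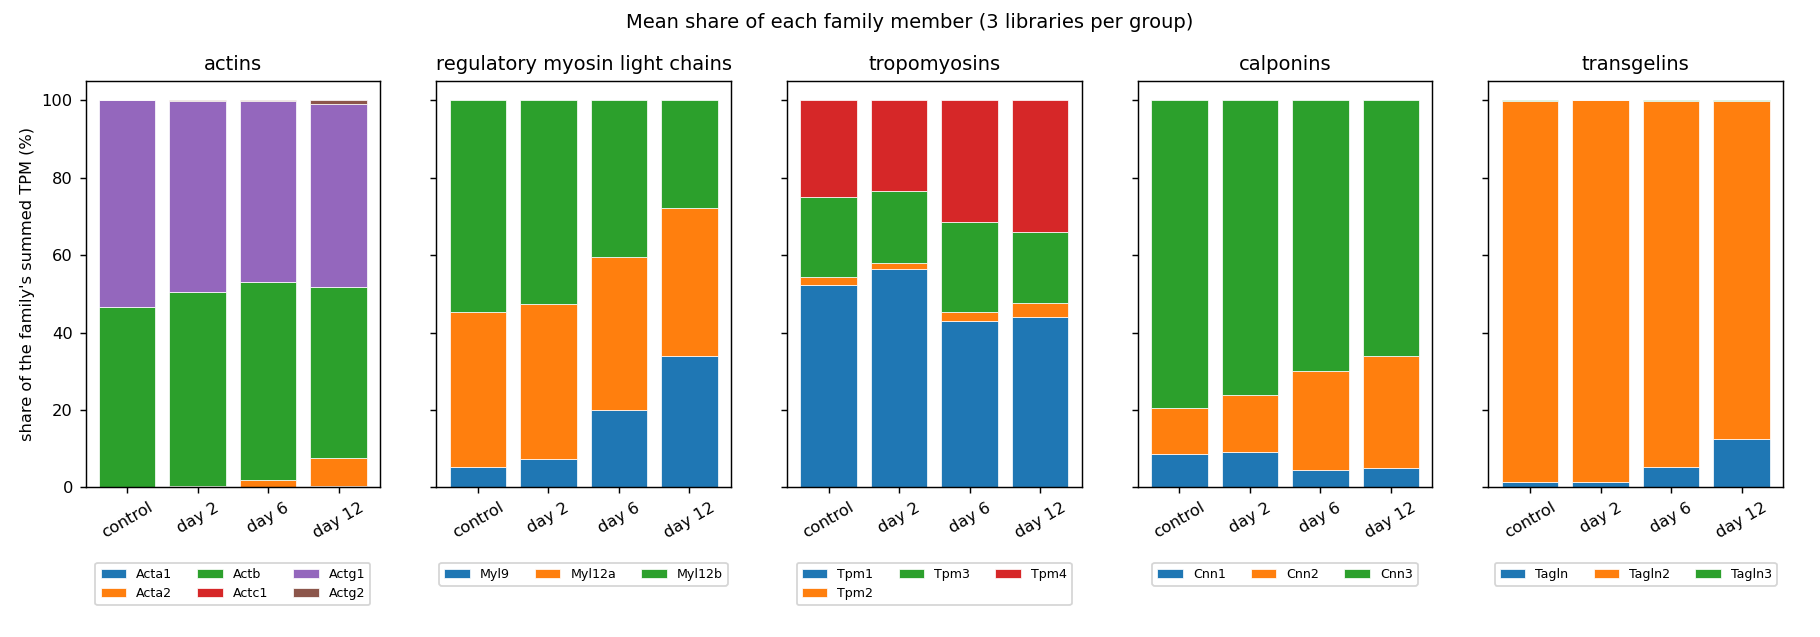
Mean share (%) of each gene in the summed TPM of its family, by group (3 libraries each, bars from 0). Myl9 grew from 5.23% to 34.0% of the regulatory light chains and Cnn2 from 11.9% to 29.0% of the calponins, while Acta2 reached 7.22% of the actins.

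Per length, the order of the 10 genes in control was Tpm1 (1138 ± 29.2 TPM), Tagln2 (293 ± 12.2), Myl9 (76.0 ± 6.94), Cnn2 (69.7 ± 4.38), Mylk (65.5 ± 4.57), Cnn1 (50.2 ± 1.95), Tpm2 (47.2 ± 4.29), Tagln (3.90 ± 1.88), Acta2 (2.98 ± 0.902) and Actg2 (0.130 ± 0.225). The libraries of Myl9 and Cnn2, of Cnn2 and Mylk, of Cnn1 and Tpm2 and of Tagln and Acta2 overlapped in range. Within each control library Myl9 lay above Cnn2, Cnn2 above Mylk and Cnn1 above Tpm2, whereas Tagln lay above Acta2 in A and B and below it in C. At day 12 the order was Tpm1 (1100 ± 68.8 TPM), Myl9 (880 ± 61.8), Tagln2 (438 ± 29.6), Acta2 (294 ± 32.4), Cnn2 (272 ± 4.22), Tpm2 (88.2 ± 17.5), Tagln (63.1 ± 13.9), Mylk (49.1 ± 2.36), Cnn1 (47.8 ± 8.01) and Actg2 (33.1 ± 5.71). There Acta2 overlapped Cnn2, Tagln overlapped both Tpm2 and Mylk, and Mylk overlapped Cnn1. Within each day 12 library Tpm2 lay above Tagln and Tagln above Mylk, while the order of Acta2 and Cnn2 and of Mylk and Cnn1 changed between libraries. Acta2 moved from the second lowest place to the fourth highest, and Mylk from the fifth to the eighth.

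**Figure D3:**
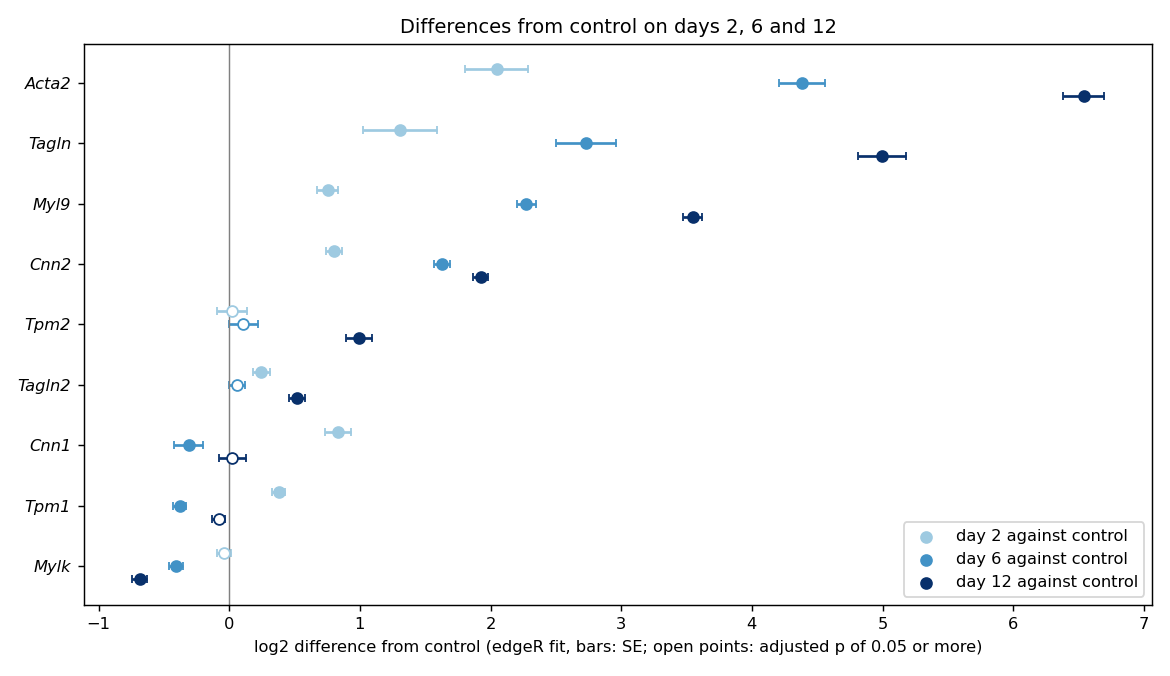
Log2 difference from control on days 2, 6 and 12 (edgeR, bars show the SE) for 9 of the genes, with filled points for an adjusted p under 0.05 and open points for the rest. Actg2 is left out because its control libraries held 1 count. Acta2, Tagln, Myl9 and Cnn2 moved further at each later day, Mylk fell further, and Cnn1 and Tpm1 changed sign between day 2 and day 6.

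In the F-test across the 4 groups all 10 genes passed, with edgeR adjusted p from 2.91e-30 (Myl9) to 2.55e-08 (Tagln2). The share of all genes passing that F-test was not counted, and 7343 of 13513 genes were called on day 6 against control alone. Counted together, 8 of the 10 genes were higher and 0 lower on day 2, with Tpm2 and Mylk not passing. That count includes Actg2, which was not tested when the 2 groups were fitted alone, leaving 7, and Tagln2, which did not pass without control C, also leaving 7. It was 5 in each of the 3 limma fits on TPM, where Tagln, Tagln2 and Cnn1 did not pass. Over all genes tested, 10.3% were higher and 10.9% lower on day 2. At day 6, 5 genes were higher (Acta2, Actg2, Tagln, Myl9 and Cnn2), 3 lower (Cnn1, Tpm1 and Mylk) and 2 did not pass, where 26.7% of all genes were higher and 27.6% lower. At day 12, 7 were higher and 1 lower, against 26.1% and 26.6% of all genes. The higher counts on days 6 and 12 include Actg2, which entered the test through the libraries of those days. The median log2 difference of the 10 was 0.78, 0.87 and 1.46 on days 2, 6 and 12, beside medians of all genes tested that did not leave zero by more than 0.01. Lower calls on day 6, 3 of 10, were close to the share over all genes.

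Between treated days, 5 genes rose and 4 fell from day 2 to day 6, where 22.6% of all genes rose and 22.3% fell. The 4 that fell were Tagln2, Cnn1, Tpm1 and Mylk, and the fall of Tagln2 (-0.19 ± 0.06, edgeR adjusted p = 0.0180) was lost when either day 2 A or B, or either day 6 A or C, was left out (edgeR adjusted p = 0.0677 to 0.0961). The falls of Tagln2 and Mylk in that step did not pass in any limma fit on TPM. From day 6 to day 12, 9 genes rose and 1, Mylk, fell by edgeR, against 11.0% of all genes in each direction. The rise of Cnn1 in that step (0.33 ± 0.11, edgeR adjusted p = 0.0254) did not pass without day 6 C, day 12 B or day 12 C (edgeR adjusted p = 0.214, 0.101 and 0.0911). From day 2 to day 12, 7 rose and 3 fell (Cnn1, Tpm1 and Mylk, the fall of Cnn1 not passing in limma on log2(TPM + 1), adjusted p = 0.0882), beside 22.3% and 21.6% of all genes. These comparisons share libraries with one another and with those against control.

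Across the 12 libraries, which share 4 groups, the log2 levels of Acta2 and Myl9 gave Pearson's r = 0.992, those of Acta2 and Mylk r = -0.957 and those of Cnn1 and Tpm1 r = 0.930, given as a description of the time course. By the same measure over all genes of at least 5 CPM, the genes most like Acta2 were Ltbp2 (r = 0.994), which encodes a latent TGF-beta binding protein of the matrix, and Ogn (r = 0.993), a small proteoglycan. Ltbp2 was also the nearest to Myl9 (r = 0.995), at 0.505, 2.55, 16.5 and 71.4 CPM in the 4 groups in order of time. Actg2 was nearest to Fhl1 (r = 0.993), Tagln to Pls3 (r = 0.992), an actin bundler, and Cnn2 to Ifi204 (r = 0.997). Cnn1 and Tpm1 both had Anxa1, a calcium-dependent membrane-binding protein, among their nearest genes (r = 0.934 and 0.960). Mylk was nearest to Fdps (r = 0.989), an enzyme of isoprenoid and cholesterol synthesis, which fell from 436 to 115 CPM. The nearest gene of Tagln2 was Tmem123 (r = 0.947) and that of Tpm2 was Dok4 (r = 0.967).

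The genes that surround the 10 in the contractile apparatus were taken from fixed lists. Some lists share genes, among them Myh11, Smtn, Lmod1 and Synpo2, so calls of these genes recur. The counts of the lists stand beside the shares of all genes tested on days 2, 6 and 12. These shares were 10.3%, 26.7% and 26.1% higher and 10.9%, 27.6% and 26.6% lower. Of 8 other myosin II chains, 3, 6 and 6 were higher on days 2, 6 and 12 and 1, 2 and 2 lower, the lower counts near the share over all genes. With limma on log2(TPM + 1) the lower counts were 0, 1 and 1. The non-muscle heavy chain Myh9 rose from 1934 ± 105 to 3450 ± 372 CPM on day 12 (log2 difference 0.84 ± 0.09, edgeR adjusted p = 1.22e-06), and the essential light chain Myl6 from 351 ± 15.9 to 723 ± 26.6 CPM (1.04 ± 0.06, edgeR adjusted p = 1.97e-17). Myh10, another non-muscle heavy chain, did not pass on day 2 and rose by 0.73 ± 0.07 on day 12 (edgeR adjusted p = 8.28e-11). Myl6b fell by 0.83 on day 12 (edgeR adjusted p = 6.68e-06). Myh11, the smooth muscle heavy chain, held at most 2 counts in a control library and 11 to 26 counts on day 12, a mean of 0.590 ± 0.104 TPM beside 744 ± 85.6 TPM for Myh9. Like Synpo2 and Ppp1r14a in the lists below, Myh11 entered the test through treated libraries, whereas Tmod1 entered through control libraries. Calls of these genes, and list counts that include them, are not independent of the filter on low counts.

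Of 23 tested genes that control myosin light chain phosphorylation, 5, 15 and 13 were higher on days 2, 6 and 12 and 1, 3 and 3 lower. With limma on log2(TPM + 1), 3 were higher and 0 lower on day 2, and 1 lower on each of days 6 and 12. Ppp1r12b, a targeting subunit of myosin phosphatase, rose from 20.2 ± 1.53 to 76.9 ± 0.372 CPM on day 12 (log2 difference 1.92 ± 0.09, edgeR adjusted p = 5.89e-19). Rnd3, an inhibitor of RhoA and ROCK signalling, rose by 1.33 ± 0.08 on day 6 (edgeR adjusted p = 7.15e-16), and Arhgef2, an activator of RhoA, by 0.70 ± 0.06 (edgeR adjusted p = 1.96e-12). The list thus held rises in genes known to act in opposite directions on the light chain, beside the fall of Mylk.

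Of 10 other tested thin filament regulators, 4, 5 and 5 were higher and 3, 3 and 3 lower on days 2, 6 and 12, the lower counts on days 6 and 12 near the share over all genes. With limma on log2(TPM + 1), 2 were higher on day 2. Caldesmon, Cald1, rose from 488 ± 13.8 to 634 ± 42.8, 1090 ± 41.0 and 1229 ± 15.6 CPM (log2 difference on day 12 1.33 ± 0.05, edgeR adjusted p = 6.18e-21). Smoothelin, Smtn, a marker of contractile smooth muscle, fell from 188 ± 9.04 to 115 ± 2.64, 43.3 ± 2.88 and 52.5 ± 5.43 CPM (-1.84 ± 0.07 on day 12, edgeR adjusted p = 6.75e-22). Its relative Smtnl2 fell from 58.1 ± 4.18 to 8.35 ± 0.647 CPM (-2.80 ± 0.11, edgeR adjusted p = 3.82e-21), and Tmod1, which caps the slow-growing filament end, from 3.84 ± 0.392 to 0.402 ± 0.164 CPM (-3.20 ± 0.44, edgeR adjusted p = 1.23e-07).

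Of 33 tested stress fibre and focal adhesion genes, 13, 25 and 24 were higher and 4, 4 and 4 lower on days 2, 6 and 12. The day 2 count fell to 5 higher and 2 lower with limma on log2(TPM + 1), and the lower count on day 6 to 1. The smooth muscle LIM protein Csrp1 rose from 247 ± 16.2 to 652 ± 30.5 CPM on day 12 (log2 difference 1.40 ± 0.06, edgeR adjusted p = 1.81e-20), and the crosslinker Actn1 from 181 ± 1.38 to 415 ± 7.28 CPM (1.20 ± 0.06, edgeR adjusted p = 3.87e-19). Palladin, Palld, rose by 1.29 ± 0.06 (edgeR adjusted p = 1.08e-19) and Fhl1 by 4.11 ± 0.20 (edgeR adjusted p = 7.14e-19), the latter from 1.43 ± 0.208 to 24.6 ± 2.31 CPM. The median log2 difference of the 33 was 0.16, 0.50 and 0.63, beside all-gene medians within 0.01 of zero.

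Of 7 tested genes for SRF and its cofactors, 2, 6 and 5 were higher and 0 lower on days 2, 6 and 12, and 0 were higher on day 2 with limma on log2(TPM + 1). Srf rose from 40.9 ± 1.32 to 57.2 ± 1.47 CPM on day 12 (log2 difference 0.48 ± 0.08, edgeR adjusted p = 2.74e-06), and Mrtfa, which encodes MRTF-A, from 69.9 ± 5.14 to 124 ± 8.38 CPM on day 6 (0.82 ± 0.07, edgeR adjusted p = 3.97e-12). Mrtfb rose by 0.27 on day 6 (edgeR adjusted p = 1.02e-04). Myocd, the myocardin gene of smooth and cardiac muscle, had 1 count over all 12 libraries.

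Late smooth muscle differentiation genes were tested for 7 of 15, and 0, 6 and 6 were higher and 1, 1 and 1 lower on days 2, 6 and 12, with 3 higher on day 6 in limma on log2(TPM + 1). The one that fell was Smtn. Of those that rose, Myh11, Synpo2 and Ppp1r14a entered the test through treated libraries, so their calls are not independent of the filter on low counts. The ones that rose included Lmod1, from 2.99 ± 0.529 to 9.74 ± 1.31 CPM on day 12 (log2 difference 1.72 ± 0.22, edgeR adjusted p = 4.69e-08), Des, from 4.15 ± 0.933 to 9.43 ± 1.37 CPM (1.18 ± 0.20, edgeR adjusted p = 5.78e-06), and Hspb6, from 23.8 ± 1.67 to 43.0 ± 4.59 CPM (0.86 ± 0.11, edgeR adjusted p = 3.93e-07). Synpo2, known from smooth and striated muscle, held 0 to 2 counts in control libraries and 25 to 32 on day 12. Ppp1r14a, the smooth muscle inhibitor of myosin phosphatase, rose on 1 to 6 counts in control libraries and 9 to 25 on day 12 (1.73 ± 0.48, edgeR adjusted p = 0.00293). Pln had no count, Kcnmb1 4 and Itga8 1 over all libraries.

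**Figure D4:**
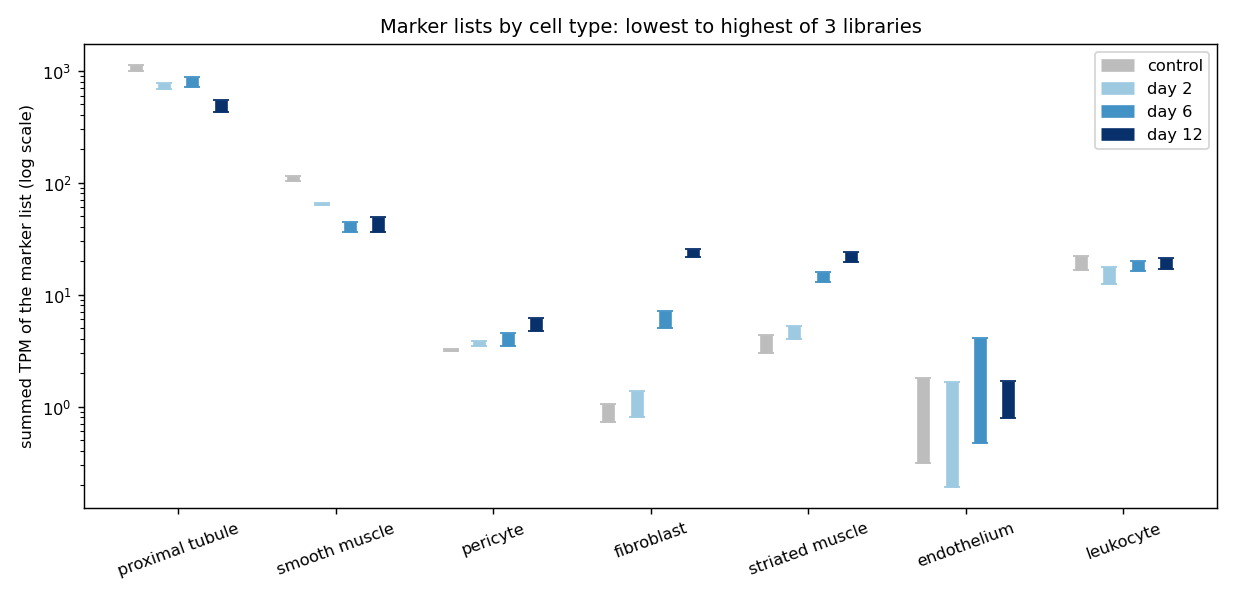
Summed TPM (log scale) of marker lists for 7 cell types by group, each bar reaching from the lowest to the highest of 3 libraries. The sum of the fibroblast list rose from 0.720 to 1.06 TPM in control to 21.8 to 25.4 TPM on day 12. The sums of the smooth muscle and proximal tubule lists were lower on day 12 than in control. Most of the smooth muscle sum was Smtn, and of the 5 tested genes of that list 4 were higher and 1 lower on day 12 by edgeR.

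Markers of other cell types were measured beside these changes. The summed level of 9 smooth muscle markers, a list that holds none of the 10 genes, was 103 to 114 TPM in control libraries, 63.0 to 66.1 on day 2, 36.1 to 44.1 on day 6 and 35.9 to 49.1 on day 12, most of it Smtn. Of its 5 tested genes, 0, 4 and 4 were higher on days 2, 6 and 12 and 1 lower at each day. Among them, Myh11 and Synpo2 entered the test through treated libraries. All 9 markers are also in the list of late smooth muscle differentiation genes, so these calls repeat calls given above. The shares of all genes tested on those days were 10.3%, 26.7% and 26.1% higher and 10.9%, 27.6% and 26.6% lower. The 9 fibroblast markers summed to 0.720 to 1.06 TPM in control and 21.8 to 25.4 TPM on day 12, with 3 tested, of which 2 were higher on day 12. That sum came from Dcn, Postn and Col1a1, whereas Col3a1, Pdgfra and Thy1 had no count in any library. All 9 fibroblast markers were under 1 TPM in control libraries, so the calls of higher may not be independent of the filter on low counts. The 10 striated muscle markers rose in sum from 2.99 to 4.37 TPM in control to 19.5 to 23.9 TPM on day 12, chiefly through Acta1 and Tnnt2, and Myod1 had no count. The 7 pericyte markers summed to 3.14 to 3.24 TPM in control and 4.69 to 6.23 TPM on day 12. Over all libraries Cspg4 held 989 counts, Notch3 736, Pdgfrb 65 and Rgs5 2. Of the 3 pericyte genes tested, 2 were higher and 1 lower on day 12 by edgeR. In control 6 of the 7 were under 1 TPM, so these calls may carry the same limit. The 7 endothelial markers summed to at most 4.11 TPM in a library and 0 were tested. Tek held 46 counts over all libraries and Pecam1 39, with Cdh5 and Kdr at 0. The 7 leukocyte markers summed to 12.5 to 22.3 TPM over all libraries. Csf1r held 1449 counts and Cd68 587, with Cd3e and Itgam at 0. Of the 2 leukocyte genes tested, 1 was higher and 1 lower on day 12 by edgeR. In bulk RNA, more cells of a type and more RNA per cell cannot be told apart, and the part of other cells in the changes of Acta2, Actg2 and Tagln was not tested.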

How the data were processed

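Bulk RNA sequencing of polyA RNA gave 12 libraries, grouped by their labels. The submitters' processing notes name the aligner STAR 2.7.8a and RSEM 1.3.3, cutadapt 2.3 and FastQC 0.11.8, and the build GRCm38; annotation release, strand use and read length are not given in the sources used here. The authors deposited RSEM expected counts as whole numbers without normalization, and TPM in a second table. From these, 0 columns of values were left out, and 4 rows without an Ensembl ID were not removed before the filter on low counts.

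The count test was edgeR 4.0.16 in R 4.3.3 (filterByExpr by group, TMM, robust quasi-likelihood fit of all 12 libraries, 8 residual degrees of freedom), two-sided, with Benjamini-Hochberg adjustment over 13513 genes and a threshold of 0.05. Alternatives were DESeq2 1.42.0, limma 3.58.1 on log2(TPM + 1) or log2(TPM + 0.1) after a filter at 1 TPM or none, other scalings and filters, a replicate block, and leaving out each library; the share of CPM in place of TPM within gene families was added after the data were seen. Only the edgeR fit was tested on simulated counts, with 200 genes changed on day 6. Ratios against control counts of 1 carry exact 95% intervals that cover counting error only. Likeness used Pearson's r of log2(CPM + 1) for genes of at least 5 CPM. Positions, transcripts and coding sequences came from GENCODE M21 and promoters from RefSeq (GRCm38.p6), matched by symbol. Same-lettered libraries did not deviate together (r from -0.14 to 0.11 over 18 pairs), so the letters were not used as pairs. Named beside the 10 genes were fixed genes of each list and up to 4 more with the smallest p across the groups. The genes, lists, markers and naming rule were chosen with earlier results of these data known.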

Additional observations from a re-analysis of the deposited data

Results flagged for a closer look

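In each of the 10 genes the difference from control was not the same at all treated days, tested as the contrast between those days on the log2 scale by edgeR. Days after treatment and time in culture cannot be told apart in these contrasts. From day 2 to day 12 the difference was 4.49 for Acta2 (adjusted p = 2.30e-15), 5.26 for Actg2 (4.06e-18), 3.69 for Tagln (3.83e-18), 2.79 for Myl9 (2.88e-26), 1.12 for Cnn2 (6.60e-18), 0.97 for Tpm2 (1.13e-08) and -0.64 for Mylk (6.95e-12), all edgeR adjusted p. From day 2 to day 6 it was -1.14 for Cnn1 (edgeR adjusted p = 4.70e-10) and -0.76 for Tpm1 (edgeR adjusted p = 1.69e-14), and from day 6 to day 12 it was 0.46 for Tagln2 (edgeR adjusted p = 1.44e-06). All 3 libraries of the later day lay on the same side of all 3 of the earlier day in each of these contrasts. The contrast given for each gene is its largest between treated days, which favours such separation. Of 13513 genes tested, 5931 were called from day 2 to day 12, 6062 from day 2 to day 6 and 2971 from day 6 to day 12. Separation of libraries was not counted over all genes. Actg2 entered the test through its day 6 and day 12 libraries.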

How the results depend on the processing

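Of 965 values of the 10 genes under the alternatives, 914 kept direction and side of the threshold, 35 lost the call, 3 gained it and 13 changed sign. The sign changes were Tpm2 at day 2 (-0.111, -0.113 and -0.111 in the 3 limma fits on TPM; -0.140 to 0.122 leaving out each library, below 0 without control A, control C or day 2 C), Cnn1 at day 12 against control (-0.084, -0.086 and -0.084 with limma; -0.025 without control C, to 0.081) and Tagln2 from day 2 to day 6 (0.015 in each limma fit); of these only Tagln2 had been called. With limma on log2(TPM + 1), log2(TPM + 0.1) and log2(TPM + 1) without a filter, genes called at day 2 went from 2860 to 1601, 1566 and 1380, and from day 6 to day 12 from 2971 to 1247, 1143 and 933. Without a filter, limma called 3871 in place of 6062 from day 2 to day 6 and 3553 in place of 5931 from day 2 to day 12. Members of the 10 called higher at day 2 went from 8 to 5, those lower from day 2 to day 6 from 4 to 2, and those lower from day 6 to day 12 from 1 to 0 in all 3 limma fits. With the replicate block, 2932 genes were called at day 2, 8 of the 10 higher and 0 lower; 3 of 12 libraries correlated best with their own letter. Of 252 counts over the lists of other contractile genes, 37 moved by more than 1.5 times, 29 of them with limma on log2(TPM + 1). Scaling moved the median of all genes by at most 0.02. Depth limits Actg2, Myh11 and Synpo2, with 0 to 2 counts in control libraries, and Tagln in control.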

Other observations

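Count and TPM of the same gene disagreed for Tagln and Cnn1. The ratio of count to TPM, which follows the transcript length assigned by RSEM once library totals are set aside, was compared over the 12 libraries. Over 5097 genes with at least 200 counts in every library, the highest ratio of a gene was a median of 1.13 times its lowest, and 5% of genes passed 1.55. For Cnn1 it was 1.60, with day 2 B highest and day 2 C lowest. For Tagln it was 3.68, between control C and control B, on 10 to 18 counts in control. Mylk gave 1.19, with its 3 lowest ratios in the 3 day 12 libraries. The other genes with values in every library gave 1.03 (Cnn2) to 1.40 (Acta2).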
